A study of Mus musculus with 6 samples.

Results

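Transcripts of 7 DNA-binding factors that bind insulin gene promoters or set beta cell identity were followed in pancreatic islets that lack Neurod1 in beta cells. They are the homeodomain factors Pdx1, Nkx6-1, Nkx2-2, Isl1, Pax6 and Mnx1 and the basic leucine zipper factor Mafa. They were chosen by gene symbol, with earlier results of these data known, and all 7 were found among the 23284 genes counted. Bulk RNA-seq libraries were made from islets of 12-week-old mice, 3 per genotype. Knockout libraries 4, 5 and 6 came from mice with floxed alleles of Neurod1 on both chromosomes and the Rip-Cre transgene, in which the rat insulin promoter drives Cre recombinase in beta cells. Control libraries 7, 10 and 16 came from mice with the same floxed alleles and no Cre, so effects of the Cre transgene and of the deletion cannot be told apart. All animals are labelled with the strain C56BL/J, and the floxed alleles are shared by both groups. The labels do not say whether a library is 1 animal or a pool, so p-values measure only how these samples vary, which may be technical.

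Insulin promoters hold clustered short elements. Pdx1 and other homeodomain proteins bind A boxes with a TAAT core, Mafa binds the C1 element, Pax6 binds the C2 element, and Neurod1 binds E boxes as a heterodimer with ubiquitous basic helix-loop-helix proteins. Adult beta cells need several of these factors at the same time to keep insulin genes active and genes of other islet cells silent. Isl1, Pax6 and Nkx2-2 are also made in other islet endocrine cells, Pdx1 also in delta cells, while Nkx6-1, Mnx1 and Mafa are largely restricted to beta cells in the adult mouse islet.

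Total counts were 12206393 to 16473159 in the knockout and 14424767 to 20412435 in the control libraries. Neurod1 fell to 29.8 ± 1.41 counts per 1e+06 counts (CPM) in the knockout, against 172 ± 29.2 CPM in the control (SD, n = 3 each), a log2 fold change of -2.53 (SE 0.13, edgeR adjusted p = 1.74e-05). Islet hormone transcripts were abundant in both groups, with Ins2 at 113100 CPM in knockout islets against 111000 CPM in control islets. Summed acinar markers (18 genes, of which Prss1 had 0 counts in knockout library 5 and none was at 0 in every library) ranged from 4816 to 14510 CPM in the knockout and from 13830 to 50380 CPM in the control, so the genotypes overlapped, and 2 of the 18 genes were called lower. Summed endothelial markers (10 genes) ranged from 618 to 730 CPM in the knockout and from 966 to 970 CPM in the control, with 8 of 10 genes called lower. Summed stellate and fibroblast markers (10 genes) ranged from 681 to 886 CPM in the knockout and from 1001 to 1315 CPM in the control, with 4 of 10 called lower. Summed alpha cell markers (7 genes) ranged from 26230 to 34910 CPM in the knockout and from 37060 to 50230 CPM in the control, with 1 of 7 called lower. Most of this sum was Gcg, at 29270 CPM in knockout islets against 40120 CPM in control islets (edgeR adjusted p = 0.0663). Summed beta cell markers (10 genes, 4 called higher and 3 lower, median log2 fold change 0.20) ranged from 134200 to 151400 CPM in the knockout and from 175700 to 193800 CPM in the control. Without Ins1, which was at 4307 CPM in knockout islets against 48670 CPM in control islets, the other 9 summed to 131100 to 145400 CPM in the knockout and 130400 to 142000 CPM in the control. Most of that sum was Ins2, so it says little about the less abundant beta cell markers, which went both ways. Sums of duct, delta, PP and epsilon, leukocyte, and Schwann and neuron markers overlapped between genotypes. Calls were 2 higher and 4 lower of 9 duct genes, and 2 higher and 3 lower of 9 Schwann and neuron genes. Of 4 delta genes 1 was higher and 1 lower, of 10 leukocyte genes 1 was lower, and no PP or epsilon gene was called. Over all genes tested, 11.8% were called higher and 12.6% lower. In bulk islets, fewer cells of a type and less RNA per cell cannot be told apart. The part of these marker levels in the results below was not tested beyond a fit with acinar marker level added as covariate. The acinar sum ran largely with genotype, at 4816, 14510 and 10510 CPM in knockout libraries 4, 5 and 6. It was 50380, 41910 and 13830 CPM in control libraries 7, 10 and 16. That fit therefore cannot fully separate genotype from acinar level, and calls kept, gained or lost in it do not settle the matter.

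Pdx1, Nkx6-1 and Pax6 were higher in knockout islets, Nkx2-2 was lower, and Mnx1, Mafa and Isl1 did not pass the test. The 4 called members of 7 (57.1%) stand beside 24.4% of the 14770 genes tested, with 11.8% of genes higher and 12.6% lower at an adjusted p under 0.05. Members and the lists below were chosen with earlier results known, so such shares describe the lists and are no test of enrichment. The values of Mafa and Isl1 overlapped between genotypes. The other 5 of 7 members had no overlap between genotypes, beside 42.0% of all genes tested. With 1 library left out, between 0 and 4 members were higher and 1 was lower, while at most 19.7% of genes were called (without knockout library 6), and 17.8% to 19.1% without knockout library 5, control library 7, control library 16 or knockout library 4. Without control library 10, where 0 members were higher, 2378 of 14871 genes were called. The median log2 fold change of the 7 members was 0.27, and that of all genes tested was -0.01. Each member had at least 211 counts in every library, so all 7 passed the filter on low counts.

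**Figure D1:**
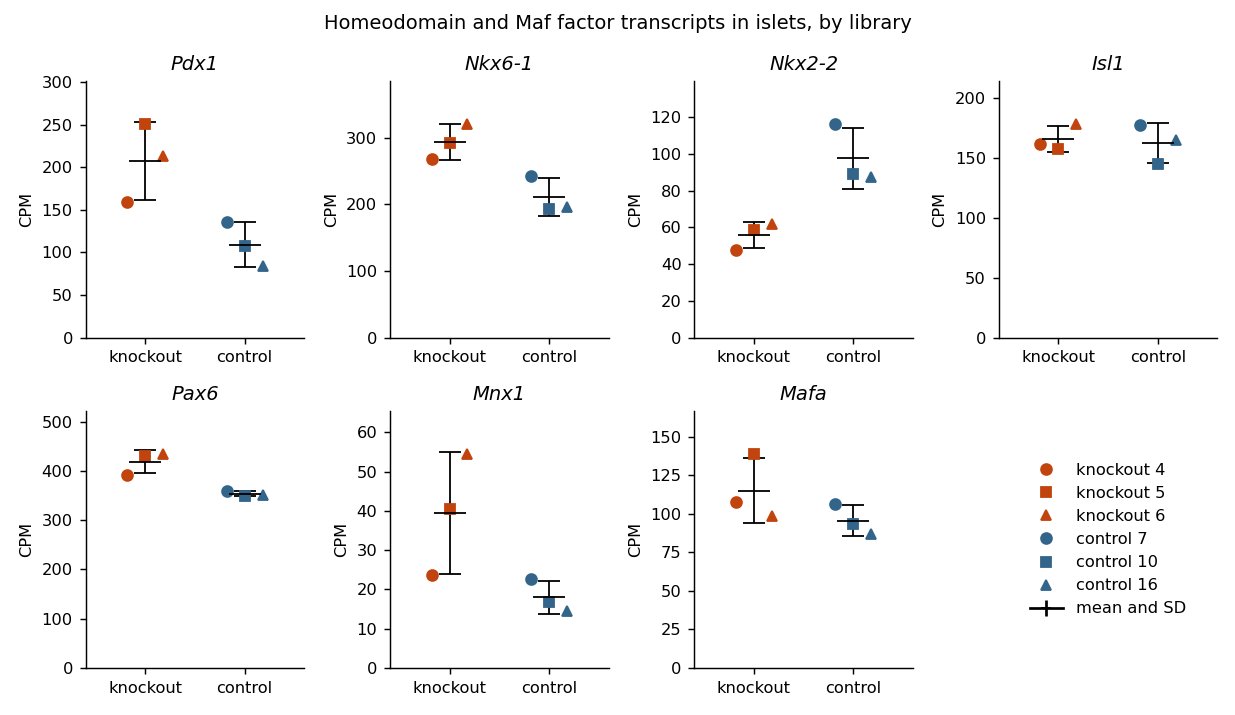
CPM of each factor (vertical axes, linear, starting at 0) in the 3 knockout and the 3 control libraries, with each library as a point and the mean and SD as black bars. The knockout points lie above the control points for Pdx1, Nkx6-1, Pax6 and Mnx1 and below them for Nkx2-2. They overlap with the control points for Isl1 and, through knockout library 6, for Mafa.

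Pdx1, the homeodomain factor that is required for pancreas formation and for insulin gene activity in adult beta cells, had 160, 251 and 213 CPM in knockout libraries 4, 5 and 6. It had 136, 107 and 83.9 CPM in control libraries 7, 10 and 16. The lowest knockout library was above the highest control library, and library 5 was the highest of the 6. Pdx1 thus averaged 208 ± 45.8 CPM in knockout islets against 109 ± 26.2 CPM in control islets (SD over 3 libraries each), a 1.90-fold difference (log2 fold change 0.93, SE 0.23, adjusted p = 0.0329 by edgeR's quasi-likelihood test). The spread within each genotype was wide, with a coefficient of variation of 22.1% in the knockout and 24.0% in the control. Pdx1 missed the threshold without knockout library 5 (0.77, adjusted p = 0.0852) or 6 (0.93, adjusted p = 0.0912) and without control library 10 (0.91, adjusted p = 0.108) or 16 (0.77, adjusted p = 0.0584), while the direction held in each of these fits.

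Nkx2-2, a homeodomain factor that activates beta cell genes and represses genes of other islet cells, was the only member lower in the knockout. It had 47.8, 58.3 and 61.7 CPM in knockout libraries 4, 5 and 6. It had 116, 88.9 and 87.2 CPM in control libraries 7, 10 and 16. Every knockout library lay below every control library. The group means were 55.9 ± 7.26 CPM in knockout islets against 97.5 ± 16.3 CPM in control islets (SD over 3 libraries each), a 1.75-fold lower level (log2 scale -0.80, SE 0.14, adjusted p = 0.00544). Nkx2-2 was past the threshold in each of the 6 fits that left out 1 library (log2 fold change from -0.88 to -0.65), and it was the only member for which this held. With acinar marker level added as covariate its log2 fold change was -0.49 (SE 0.16, adjusted p = 0.0850) and it did not pass. In that fit 11.7% of all genes were called.

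The 250 bases before the RefSeq start of Pdx1, Nkx2-2 and Nkx6-1 are given because these are the called members with the largest changes and because Neurod1 binds E boxes, whose letters are CANNTG. The windows are those of build GRCm38.p6 and not of mm9, the build named for the counts. They lie at chr5:147269847-147270096 on the + strand for Pdx1, chr2:147186403-147186652 on the - strand for Nkx2-2 and chr5:101664712-101664961 on the - strand for Nkx6-1, directly upstream of the first exon in each case. Capitals mark CANNTG, which reads the same on both strands. Adjacent capitals in Pdx1 are 2 such matches side by side.
Pdx1: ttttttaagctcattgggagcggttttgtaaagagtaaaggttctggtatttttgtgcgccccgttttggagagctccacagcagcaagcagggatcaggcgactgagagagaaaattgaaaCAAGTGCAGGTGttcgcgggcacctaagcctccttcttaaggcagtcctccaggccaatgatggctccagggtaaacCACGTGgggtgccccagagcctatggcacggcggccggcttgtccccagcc
Nkx2-2: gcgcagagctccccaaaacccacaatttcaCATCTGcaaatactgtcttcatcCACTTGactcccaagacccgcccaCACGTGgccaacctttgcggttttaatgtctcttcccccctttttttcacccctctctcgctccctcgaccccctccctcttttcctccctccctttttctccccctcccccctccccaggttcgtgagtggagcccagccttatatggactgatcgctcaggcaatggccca
Nkx6-1: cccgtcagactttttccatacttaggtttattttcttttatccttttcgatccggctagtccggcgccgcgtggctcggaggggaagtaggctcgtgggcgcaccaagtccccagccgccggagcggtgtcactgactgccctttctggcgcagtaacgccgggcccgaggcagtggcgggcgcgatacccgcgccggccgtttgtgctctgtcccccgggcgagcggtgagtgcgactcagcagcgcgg
Pdx1 held 3 matches, at -128 to -123 (CAAGTG), -122 to -117 (CAGGTG) and -51 to -46 (CACGTG), counted from the start site. Nkx2-2 held 3 matches, at -220 to -215 (CATCTG), -197 to -192 (CACTTG) and -173 to -168 (CACGTG). Nkx6-1 held 0. Of the members not printed, Isl1 held 1 match, Mnx1 held 2, and Pax6 held 0 before start site 1 and 1 before start site 2. Matches were thus also present before members that were not called. Windows of 66.2% of 32851 RefSeq promoters of the same length hold at least 1 CANNTG. How many hold 3 was not counted. The form CATCTG or its reverse complement, an E box of insulin promoters, is in 14.4% of them and, among the 6 members with an entry, in Nkx2-2. The core TAAT, searched on both strands, is in 54.9% of windows. It was found in Nkx2-2, Isl1, Pax6 and Mnx1, at 1 or 2 places per window, and not in these windows of Pdx1 and Nkx6-1. Mafa had no entry. These matches are letters in a window and no evidence of binding.

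Nkx6-1, which keeps the beta cell program on and the alpha cell program off, had 268, 292 and 321 CPM in knockout libraries 4, 5 and 6. It had 243, 194 and 196 CPM in control libraries 7, 10 and 16. The groups did not overlap, and control library 7 came closest to the knockout range. Its mean was 294 ± 26.8 CPM in knockout islets against 211 ± 27.8 CPM in control islets (SD over 3 libraries each), a 1.39-fold difference (log2 fold change 0.47, SE 0.11, adjusted p = 0.0147). Leaving out control library 10 (0.41, adjusted p = 0.0619) or 16 (0.42, adjusted p = 0.0553) ended the call of Nkx6-1. With acinar marker level added as covariate it kept its call (0.67, adjusted p = 0.0297), as did Pdx1 (1.56, adjusted p = 0.000697).

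Pax6, which has a paired domain beside its homeodomain and serves all islet endocrine cells, had 393, 431 and 435 CPM in knockout libraries 4, 5 and 6. It had 359, 350 and 352 CPM in control libraries 7, 10 and 16. The control libraries lay close together, with a coefficient of variation of 1.37%, and the knockout libraries lay above them. Its mean was 420 ± 23.3 CPM in knockout islets against 354 ± 4.86 CPM in control islets (SD over 3 libraries each), a 1.19-fold difference (log2 fold change 0.25, SE 0.08, adjusted p = 0.0443). Pax6 missed the threshold without knockout library 5 (0.23, adjusted p = 0.111) or 6 (0.23, adjusted p = 0.0878), without control library 7 (0.27, adjusted p = 0.102), 10 (0.24, adjusted p = 0.135) or 16 (0.24, adjusted p = 0.105), and with the acinar covariate (0.32, adjusted p = 0.107).

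Mnx1, a homeodomain factor that keeps beta cells from taking on a delta cell fate in the mouse, had the largest log2 fold change of the 7 and the widest spread. It had 23.6, 40.4 and 54.5 CPM in knockout libraries 4, 5 and 6. It had 22.6, 16.8 and 14.5 CPM in control libraries 7, 10 and 16. Knockout library 4 was hardly above control library 7, and the coefficient of variation was 39.2% in the knockout and 23.4% in the control. Its mean was 39.5 ± 15.5 CPM in knockout islets against 17.96 ± 4.199 CPM in control islets (SD over 3 libraries each). The log2 fold change was 1.13 (SE 0.34, adjusted p = 0.0673), which did not pass. Without knockout library 4 it was 1.41 (SE 0.21, adjusted p = 0.0074). DESeq2 (1.15, adjusted p = 0.000147) and limma-voom (1.03, adjusted p = 0.0465) also put Mnx1 past the threshold, in tests that called 23.1% and 23.5% of all genes. With the acinar covariate Mnx1 passed as well, at a larger log2 fold change of 1.84 (adjusted p = 0.0472).

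Mafa, the Maf factor of mature beta cells that activates insulin transcription in response to glucose, had 108, 139 and 98.5 CPM in knockout libraries 4, 5 and 6. It had 106, 93.7 and 86.7 CPM in control libraries 7, 10 and 16. The ranges overlapped, since knockout library 6 was below control library 7. Its mean was 115 ± 21.2 CPM in knockout islets against 95.5 ± 9.95 CPM in control islets (SD over 3 libraries each). The log2 fold change was 0.27 (SE 0.14, adjusted p = 0.192). It was 0.11 without knockout library 5 (adjusted p = 0.488) and 0.53 with the acinar covariate (adjusted p = 0.0993), and Mafa did not pass in either fit.

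Isl1, a LIM homeodomain factor of all islet endocrine cells, had 162, 158 and 178 CPM in knockout libraries 4, 5 and 6. It had 177, 144 and 165 CPM in control libraries 7, 10 and 16. The libraries of both genotypes were interleaved, at means of 166 ± 10.9 CPM in knockout islets against 162 ± 16.6 CPM in control islets (SD over 3 libraries each). The log2 fold change was 0.03 (SE 0.09, adjusted p = 0.828).

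**Figure D2:**
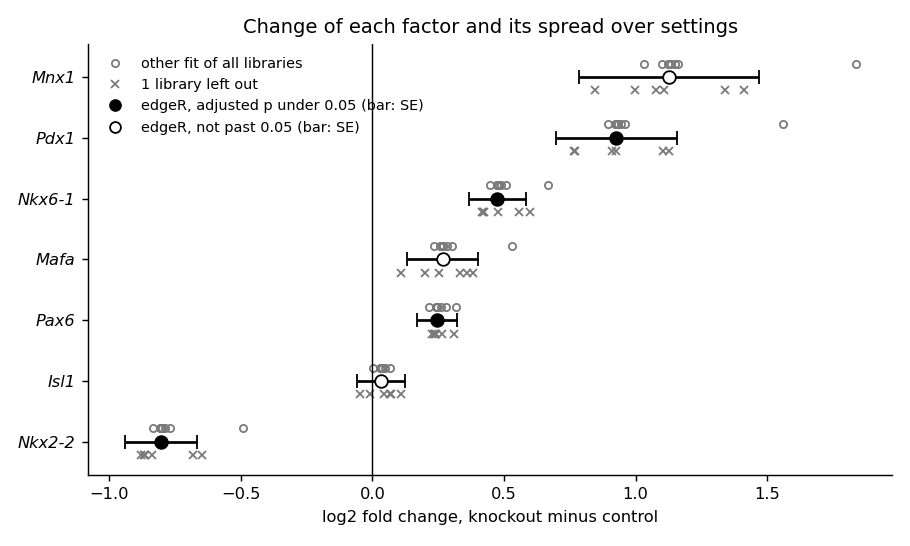
Log2 fold change of each factor, knockout minus control (horizontal axis), from edgeR with its SE (large points, filled where the adjusted p was under 0.05), from other fits of all libraries (open grey circles) and from fits without 1 library (grey crosses). Nkx2-2 lies left of 0 in every fit, from -0.88 to -0.49, and the outlying open circles are the fits with acinar marker level added as covariate.

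In the authors' deposited table the members had the same directions, and at a threshold of 0.05 only the call of Pax6 differed. The authors' deposited table gives adjusted p-values of 0.0226 for Pdx1, 0.00427 for Nkx6-1 and 0.00107 for Nkx2-2. In the authors' deposited table Pax6 (adjusted p = 0.0864), Mnx1 (0.14), Mafa (0.485) and Isl1 (0.992) were over 0.05. The authors' deposited table lists 12.8% of 19440 genes under 0.05.

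Within a genotype the members often shared their extreme libraries. How often the same libraries were highest or lowest over all genes was not counted, so this is not shown to be particular to the members. Control library 7 was the highest of its group for all 7 members. Knockout library 4 was the lowest of its group for 5 members (Pdx1, Nkx6-1, Nkx2-2, Pax6 and Mnx1), and knockout library 6 was the highest for 5 (Nkx6-1, Nkx2-2, Isl1, Pax6 and Mnx1). Knockout library 5 was the highest for Pdx1 and Mafa. Summed over the 7 members, levels were 1160, 1369 and 1361 CPM in the knockout (libraries 4, 5 and 6), against 1161, 995 and 986 CPM in the control (libraries 7, 10 and 16), so knockout library 4 and control library 7 met. Control library 7 also had the highest acinar sum and knockout library 4 the lowest.

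The ratio of 2 factors within a library does not depend on how libraries are scaled to each other. For each of the 6 pairs that include Nkx2-2 the genotypes did not overlap. All 6 share Nkx2-2, whose CPM alone already did not overlap, so they are not 6 separate results. For example, there were 5.60, 5.01 and 5.20 Nkx6-1 counts per Nkx2-2 count in knockout libraries 4, 5 and 6. There were 2.09, 2.18 and 2.25 in control libraries 7, 10 and 16. This 2.42-fold difference in the ratio (1.28 on the log2 scale) compares with a pooled SD between libraries of 0.07 on that scale. That SD was the smallest of the 21 pairs, and the other pairs with Nkx2-2 had pooled SDs of 0.16 to 0.31. Counts of Pdx1 per count of Nkx2-2 were 3.34, 4.30 and 3.45 in the knockout (libraries 4, 5 and 6), against 1.17, 1.21 and 0.962 in the control (libraries 7, 10 and 16), a 3.31-fold difference. Over the 6 pairs with Nkx2-2 the ratio changed 1.78-fold to 3.67-fold. Of the other 15 pairs, 9 had no overlap, beside 47.4% of all pairs of the 11353 genes with at least 5 CPM on average. Pdx1 per Mnx1 (log2 difference -0.15) and Pax6 per Mafa (-0.01) were among the pairs that overlapped. All 15 pairs with no overlap reached an exact two-sided permutation p = 0.1, the smallest that 3 against 3 libraries allow (adjusted over 21 pairs, p = 0.14), so no pair could pass a threshold of 0.05.

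**Figure D3:**
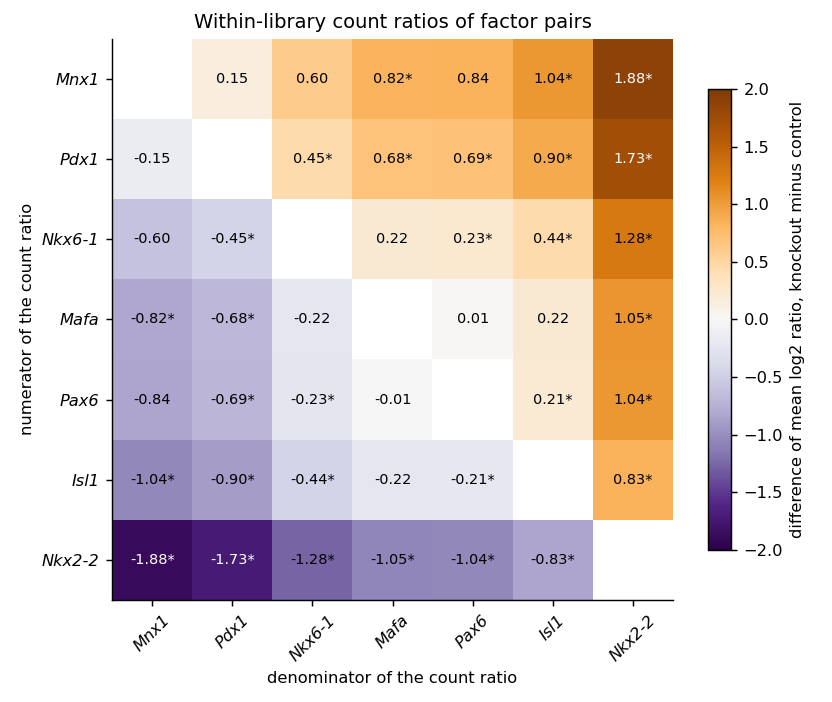
Difference of the mean log2 count ratio, knockout minus control, for each ordered pair of factors (rows: numerator, columns: denominator, colour scale from -2 to 2). A star marks pairs whose 3 knockout and 3 control ratios do not overlap. All 6 off-diagonal cells of the Nkx2-2 row are negative and starred.

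Per kb of transcript, Pax6 had the highest level in control islets and Mnx1 the lowest. Lengths were those of the longest coding transcript in GENCODE M21. The control order was Pax6 (79.9 ± 1.10 CPM per kb), Nkx6-1 (67.3 ± 8.86), Isl1 (64.5 ± 6.60), Pdx1 (50.6 ± 12.2), Nkx2-2 (46.0 ± 7.71), Mafa (34.9 ± 3.63) and Mnx1 (8.00 ± 1.87) (SD, n = 3). In knockout islets the order was Pdx1 (96.3 ± 21.2 CPM per kb), Pax6 (94.8 ± 5.25), Nkx6-1 (93.6 ± 8.54), Isl1 (65.9 ± 4.34), Mafa (42.0 ± 7.73), Nkx2-2 (26.4 ± 3.42) and Mnx1 (17.6 ± 6.89) (SD, n = 3). The library values of the first 3 of the knockout order overlapped, as did those of the control neighbours Nkx6-1 and Isl1, Isl1 and Pdx1, and Pdx1 and Nkx2-2. Nkx2-2 stood above Mafa in the control order and below it in the knockout order, with no overlap between the 2 factors in either genotype. By coding length, Pax6 was first and Mnx1 last in both genotypes. The transcript isoforms present in islets are not known from gene counts, so levels between genes are approximate.

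**Figure D4:**
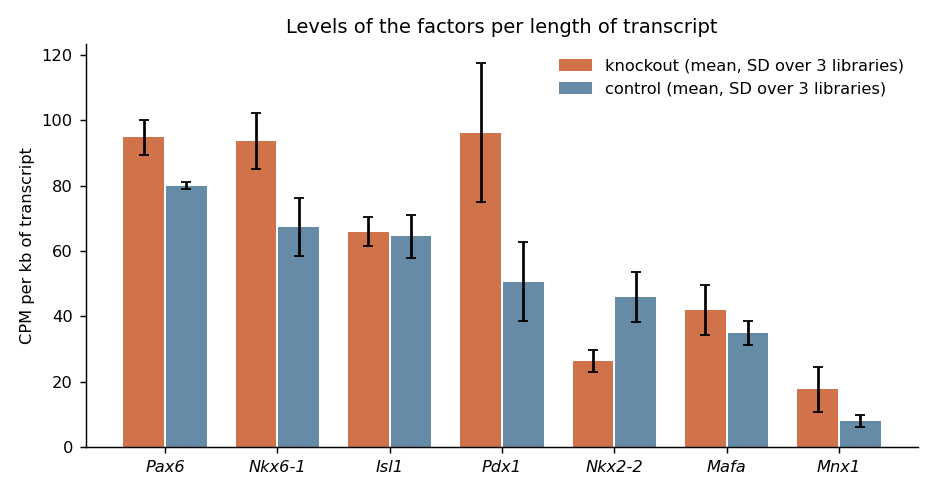
Mean CPM per kb of transcript (vertical axis from 0) with SD over 3 libraries for each factor in knockout and control islets, ordered by the control level. Pdx1 stands at 96.3 in the knockout and 50.6 in the control, and Nkx2-2 at 26.4 in the knockout and 46.0 in the control.

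Noncoding genes overlap some of these loci, and the sources used here do not give whether reads were counted by strand. The lncRNA 2210019I11Rik (Plut in RefSeq) overlaps Pdx1, and it had 51.5, 97.0 and 70.1 CPM in knockout libraries 4, 5 and 6 against 20.8, 16.1 and 21.7 CPM in control libraries 7, 10 and 16. Its groups did not overlap, and its log2 fold change of 1.90 (SE 0.26, adjusted p = 0.00446) was 3.74-fold. There were 3.10, 2.59 and 3.03 Pdx1 counts per 2210019I11Rik count in the knockout (libraries 4, 5 and 6), against 6.56, 6.64 and 3.87 in the control (libraries 7, 10 and 16) (exact two-sided permutation p = 0.1, the smallest possible). Pax6os1, a noncoding gene that overlaps Pax6, had 14.7, 21.6 and 16.1 CPM in knockout libraries 4, 5 and 6. It had 8.63, 8.04 and 10.2 CPM in control libraries 7, 10 and 16. It was past the threshold (log2 fold change 0.97, SE 0.17, adjusted p = 0.00403). Elp4, a protein-coding neighbour whose annotation overlaps that of Pax6, was at 31.1 ± 4.21 CPM in knockout islets against 22.9 ± 0.546 CPM in control islets (SD over 3 libraries each; 0.44 on the log2 scale, adjusted p = 0.0185), and it was named after its values were seen. Nkx2-2as, at the Nkx2-2 locus, had at most 4 counts in a library and was not tested. In a further fit the counts of 2210019I11Rik, Pax6os1 and Nkx2-2as were added to their partners, and those of Elp4 were not. In that fit Pdx1 was at a log2 fold change of 1.12 (adjusted p = 0.0138) and Pax6 at a log2 fold change of 0.27 (adjusted p = 0.0334). Unless strand was used, reads of a gene and of its overlapping partner cannot be told apart.

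**Figure D5:**
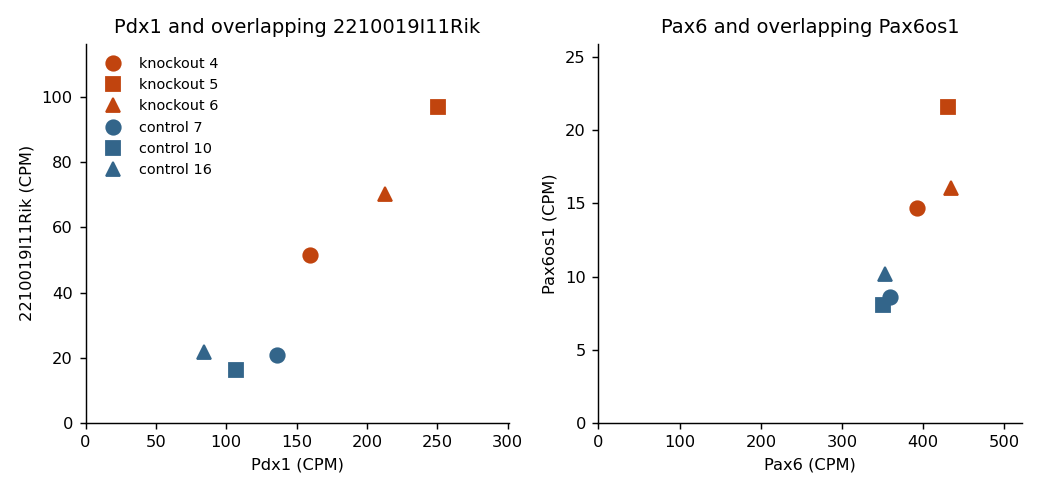
CPM of 2210019I11Rik against Pdx1 (left) and of Pax6os1 against Pax6 (right), 1 point per library, both axes linear from 0. The 3 knockout libraries lie above and to the right of the 3 control libraries in both panels.

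Among 12 listed relatives of the 7 members, 6 were tested, 0 were higher and 2 were lower (33.3% called, against 24.4% of all genes tested), with a median log2 fold change of -0.26. Maff, a small Maf protein without an activation domain, was at 5.31 ± 1.30 CPM in knockout islets against 9.76 ± 1.19 CPM in control islets (SD over 3 libraries each; log2 fold change -0.87, SE 0.20, adjusted p = 0.0138). The small Maf gene Mafg was lower by 0.23 in log2 terms (39.1 CPM in knockout islets against 46.0 CPM in control islets, adjusted p = 0.0455), a call that was lost without any 1 library (adjusted p from 0.0562 to 0.128) or with the acinar covariate (adjusted p = 0.110). Pax4 and Gsx1 had 0 counts in all 6 libraries. Nrl, Nkx6-2, Nkx6-3 and Isl2 had too few counts to be tested.

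Among 22 cofactors of these factors, all tested, 5 were higher, 4 were lower and 13 did not pass (40.9% called, against 24.4% of all genes, median log2 fold change 0.05). The partner homeodomain gene Pbx3, whose protein family binds DNA with Pdx1, had 67.0 ± 5.42 CPM in knockout islets against 36.4 ± 1.81 CPM in control islets (SD over 3 libraries each), a log2 fold change of 0.88 (SE 0.08, adjusted p = 0.000162). Its relative Pbx2 (0.06, adjusted p = 0.596) did not pass. The ATPases of the Swi/Snf remodelling complex, which Pdx1 recruits, were higher: Smarca2 by 0.53 (261 CPM in knockout islets against 181 CPM in control islets, adjusted p = 0.00122) and Smarca4 by 0.37 (237 CPM in knockout islets against 183 CPM in control islets, adjusted p = 0.00506). The Groucho family corepressor gene Tle2 was higher (0.45, adjusted p = 0.0136), a call that was lost without control library 10 (0.41, adjusted p = 0.0568) and with the acinar covariate (0.39, adjusted p = 0.164). Tle3, the Groucho corepressor that binds Nkx2-2, was lower, at 86.7 ± 10.2 CPM in knockout islets against 126 ± 17.6 CPM in control islets (SD over 3 libraries each; log2 fold change -0.54, adjusted p = 0.0145). Ldb1, the adaptor of LIM homeodomain proteins such as Isl1, was lower by 0.21 (adjusted p = 0.0439), and its partner Ssbp3 was higher by 0.28 (adjusted p = 0.0212). Meis1 (-0.32, adjusted p = 0.0322) and Meis3 (-0.30, adjusted p = 0.0348), of a family that binds DNA with Pbx proteins, were also lower. Pbx2, Tle3, Ldb1, Ssbp3, Meis1 and Meis3 were named after their values were seen. The number of cofactors called lower ranged from 0 to 2 when 1 library was left out, against 4 with all libraries.

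Genes reported as direct targets of the members in beta cells went both ways. Of 19 listed genes, 6 were higher, 6 were lower and 7 did not pass (63.2% called, against 24.4% of all genes, median log2 fold change 0.13). This share counts Neurod1, the deleted gene, whose call was set by the design. Gipr, the receptor for the incretin GIP, fell to 48.9 ± 0.940 CPM in the knockout, against 171 ± 12.0 CPM in the control (3 libraries each, with SD; log2 fold change -1.81, SE 0.07, adjusted p = 6.88e-06). Pcsk1, a proinsulin convertase, was higher by 1.36 (SE 0.10, adjusted p = 6.21e-05) and Ero1lb, which forms disulfide bonds in the endoplasmic reticulum, by 1.55 (SE 0.14, adjusted p = 0.000127). Also higher were Glp1r (1.10), Prlr (0.98), Pcx (0.60) and Slc2a2 (0.35), and also lower were Neurod1 itself, Ins1 (-3.50), Atf5 (-1.15), G6pc2 (-1.04) and Slc30a8 (-0.53), all given as log2 fold changes. Apart from Neurod1, these further genes were named after their values were seen. Targets called numbered 5 to 6 higher and 6 to 7 lower when 1 library was left out.

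Of 20 other islet transcription factors listed, 19 were tested, 0 were higher and 7 were lower, Neurod1 among them (36.8% called, against 24.4% of all genes, median log2 fold change -0.43). The call of Neurod1, the gene deleted in these mice, was set by the design and is part of this share. Mlxipl, the carbohydrate response factor, fell to 147 ± 10.9 CPM in the knockout, against 493 ± 21.3 CPM in the control (3 libraries each, with SD; log2 fold change -1.75, adjusted p = 9.36e-06). Rfx6 (-0.55, adjusted p = 0.00313) and Foxa2 (-0.35, adjusted p = 0.0117), which act upstream of several members, were also lower. Foxa2 lost its call without control library 7 (-0.31, adjusted p = 0.0521), and with that library left out 4 listed factors were lower. With the acinar covariate neither Rfx6 (-0.49, adjusted p = 0.0569) nor Foxa2 (-0.26, adjusted p = 0.170) passed, and 2 listed factors were lower.

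Of 10 genes of other islet cell fates, which the members keep low in beta cells, 0 were higher and 2 were lower (median log2 fold change -0.31). This share of 20% called was not above the 24.4% of all genes. Hhex, a factor of delta cells, was at 23.7 ± 2.04 CPM in knockout islets against 29.7 ± 2.04 CPM in control islets (SD over 3 libraries each; log2 fold change -0.33, adjusted p = 0.0400). Irx1, a factor of alpha cells, was at 9.64, 11.5 and 8.92 CPM in knockout libraries against 15.3, 12.1 and 14.5 CPM in control libraries (log2 fold change -0.48, adjusted p = 0.0402). Leaving out 1 of libraries 4, 5, 10 and 16 ended the call of Hhex (adjusted p between 0.0862 and 0.123), and leaving out 1 of libraries 4, 6, 7 and 16 ended that of Irx1 (between 0.102 and 0.142). Neither Hhex (adjusted p = 0.0753) nor Irx1 (adjusted p = 0.259) passed with the acinar covariate. The ghrelin gene Ghrl did not pass (-0.41, adjusted p = 0.489). Ghrl was named after its values were seen.

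Genes with the most similar pattern to each member were found as those whose 6 log2 CPM values, each minus the gene's control mean, had the smallest root mean square distance, among 11352 other genes with at least 5 CPM on average. For Pdx1 they were Slc16a6 (distance 0.11) and the phosphodiesterase gene Pde4b (0.11), and for Nkx6-1 Fam58b (0.07) and Lsm4 (0.08). For Nkx2-2 they were Etl4 (0.06), at 39.8 CPM in knockout islets against 71.2 CPM in control islets, and the tight junction gene Cgn (0.08), at 35.9 CPM in knockout islets against 61.8 CPM in control islets. Mnx1 was nearest to the replication gene Mcm5 (0.16) and to 1810019D21Rik (0.19), and these were the largest nearest distances of the 7 members. Pax6 was nearest to Ftsjd1 (0.02) and Sri (0.03), Isl1 to Cmc1 (0.03) and 1700029G01Rik (0.03), and Mafa to Fam190a (0.04) and Nfic (0.07). The distances cover 6 libraries that share the genotype contrast and describe likeness in these libraries alone.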

How the data were processed

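For every library the authors deposited a table of whole-number gene counts. The authors also deposited a comparison of their own, with a scaled group mean (signal), a fold change (ratio), its log2 value, p-values and adjusted p-values. The submitters' processing notes name build mm9 and the tools TopHat2 2.1.0, Cufflinks 2.0.2, DESeq and bcl2fastq 1.8.4, without their roles. Which program counted reads, on which annotation and with which strand setting, is not given in the sources used.

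Counts were analysed with edgeR 4.0.16 in R 4.3.3. Genes passing filterByExpr (minimum count 10, minimum total 15; 14770 of 23284) were scaled by TMM and tested with robust quasi-likelihood F statistics, adjusted by Benjamini-Hochberg over all genes tested, with a threshold of 0.05. CPM use TMM-scaled library sizes. The test was also run on simulated counts with the same dispersion for every gene and far fewer changed genes than were called here. That run checks the code and does not show how many calls in these data are false. DESeq2 1.42.0, limma 3.58.1 (voom), other scalings, filters, the acinar covariate and fits without 1 library were alternatives. The members and lists were chosen with earlier results of these data known. Genes were named by a rule: members and Neurod1, per list the 4 called genes of lowest p at most (with no call, the 2 most abundant), overlapping noncoding genes, and the 2 nearest in pattern to each member. Promoter windows and overlapping genes are from RefSeq GRCm38.p6. No coordinate was converted between builds. Results for some list genes are not reported here.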

Additional observations from a re-analysis of the deposited data

How the results depend on the processing

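No paired analysis was possible because the genotypes share no replicate number. Under the alternatives run, Pdx1, Nkx6-1, Nkx2-2, Pax6, Mnx1 and Mafa kept their direction, and Isl1 changed sign without 1 library (-0.046 without control library 10, -0.008 without knockout library 6, up to 0.11). With 1 library left out, Pdx1 ranged from 0.77 to 1.13, Nkx6-1 from 0.41 to 0.60, Nkx2-2 from -0.88 to -0.65, Pax6 from 0.23 to 0.31, Mnx1 from 0.85 to 1.41 and Mafa from 0.11 to 0.38. Between 0 and 4 members were higher and 1 was lower (all genes: 1153 to 1590 higher, 1225 to 1433 lower). Relatives called lower then numbered 1 to 2, cofactors 3 to 5 higher and 0 to 2 lower, other islet factors 4 to 7 lower and other-fate genes 0 to 1 lower. With no filter on low counts Pdx1 missed the threshold (0.96, adjusted p = 0.0586), with 2 cofactors, 1 relative and 0 other-fate genes lower. Pax6 missed it with upper-quartile factors (0.21, adjusted p = 0.0597) and without robust estimation (0.25, adjusted p = 0.0524), where Mnx1 passed (1.13, adjusted p = 0.0270). DESeq2 (1.15) and limma-voom (1.03) also put Mnx1 past the threshold. DESeq2 had 1 relative, 2 cofactors and 1 other-fate gene lower, limma-voom 1 relative and 1 other-fate gene, and library totals alone 1 other-fate gene. With acinar marker level added as covariate, Nkx2-2 (-0.49) and Pax6 (0.32) missed the threshold and Mnx1 passed (1.84, adjusted p = 0.0472), so 0 members were lower, and 936 genes were higher and 793 lower, with 1 relative, 1 cofactor, 2 other islet factors and 1 other-fate gene lower. The causes were not tested. The antisense sums were added after seeing the data. Per kb of coding length, knockout and control means were 244 and 128 CPM for Pdx1, 268 and 193 for Nkx6-1, 68.3 and 119 for Nkx2-2, 158 and 155 for Isl1, 321 and 271 for Pax6, 32.6 and 14.8 for Mnx1 and 107 and 88.7 for Mafa. All 147 recomputed pair ratios moved by less than 1 pooled SD, but this was fixed in advance. Leaving out 1 of 3 libraries cannot move a group mean that far. The other recomputation added 0.5 counts, which is little beside 211 counts. With 1 library left out, the log2 difference of Nkx6-1 per Nkx2-2 ranged from 1.23 to 1.31. That of Pdx1 per Mnx1 ranged from -0.30 to 0.10. Each member had at least 211 counts in every library.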
